A study of Ovis aries with 7 samples.

Results

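Polycomb repressive complex 1 (PRC1) is described here through 10 genes, RING1, RNF2, BMI1, PCGF1, PCGF3, PCGF5, PCGF6, RYBP, YAF2 and KDM2B. They were chosen by name, and each has a row among the 31304 rows of the deposited expression table. The embryos were sheep (Ovis aries) at the 8-cell stage, made by in vitro fertilization (IVF), and the labels give 3 IVF libraries and no strain, sex or age. The labels also list 4 libraries from cloned embryos (somatic cell nuclear transfer, SCNT). No table column bears an SCNT sample's name, and the 4 columns named otherwise match no label, so SCNT embryos are not analysed here and nothing below compares them with IVF embryos. PolyA RNA was amplified and sequenced with Smart-seq2, a method for very small amounts of RNA.

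PRC1 is an E3 ubiquitin ligase that places a single ubiquitin on histone H2A at lysine K119, a mark tied to gene repression. Every form of it pairs a catalytic RING subunit, RING1 or RNF2 (also called RING1B), with a PCGF protein, and the PCGF protein helps to set the form. Canonical PRC1 is built on PCGF2 or BMI1 (also called PCGF4) with a CBX and a PHC protein, and its CBX subunit binds the H3K27me3 mark made by Polycomb repressive complex 2 (PRC2). Variant PRC1 holds RYBP or YAF2 and needs no CBX reader. The other PCGF proteins belong to variant PRC1, and PCGF2 or BMI1 can be part of it too. In mouse, H2AK119 ubiquitin is carried from the oocyte into the embryo, and PCGF1 and PCGF6 act in the oocyte to place it.

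Values are TPM, a unit of transcript abundance scaled by gene length and by library total. Levels of different genes can thus be set side by side as estimates. Whether the RNA of each gene was captured and counted equally well was not tested. Means are given ± SD over 3 IVF libraries (n = 3). Depth is unknown, since TPM does not retain it, and neither counting intervals nor detection floors can be had. Nothing in the labels ties a library to a separate batch of embryos, so the spread may be partly technical. In whole embryos, fewer cells that express a gene and less of its RNA per cell cannot be told apart.

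The libraries held the RNA of early embryos. All 9 markers fixed for early embryo and oocyte RNA were at 1 TPM or more in every library, and their summed level ranged from 1580.3 to 2614 TPM. The oocyte genes among them, BTG4, ZP4, MOS, GDF9 and BMP15, had means of 368, 319, 314, 106 and 91.0 TPM. Whether PRC1 RNA was stored from the oocyte or made by the embryo was not tested. Of 7 cumulus and granulosa markers in the table, 1 (HAS2) was at that level throughout and 2 (PTX3 and FOXL2) were listed at 0, and the summed level ranged from 8.88 to 16.5 TPM. PTX3 lies wholly inside another gene in the reference gene table, so its 0 may be a failed estimate. Of 8 fibroblast markers, 2 were at that level throughout, and the summed level ranged from 11.3 to 18.9 TPM. All 3 sums were highest in replicate 2, which also held the most genes at 1 TPM or more (12246, against 11090 in replicate 1 and 10973 in replicate 3). The part of these differences in the values below was not tested.

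PRC1 RNA in IVF embryos was uneven, with PCGF1, PCGF6, RYBP, RNF2 and YAF2 well above RING1, BMI1, KDM2B, PCGF5 and PCGF3. The first 5 had means of 17.8 to 107 TPM, and the other 5 had means of 0.507 to 3.97 TPM. No library had a member of the lower 5 above a member of the upper 5. Of the 10 members, 9 were at 1 TPM or more in every library, and PCGF3 was below it in every library. Among 16563 rows with a gene symbol, 49.0% were at 1 TPM or more in every library. The median of the 10 members stood at 11.1 ± 0.756 TPM, and the median of all symbols stood at 1.51 ± 0.213 TPM. The former is the midpoint of the gap between the upper 5 and the lower 5, so no member lies near it.

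**Figure D1:**
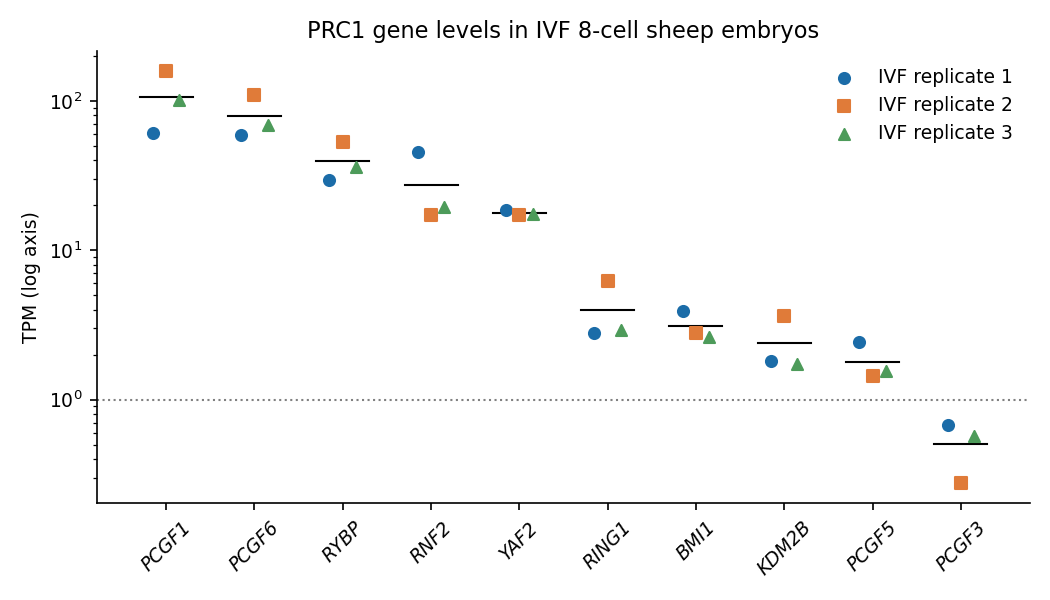
TPM (log axis) of the 10 PRC1 genes in each IVF library, ordered by mean. Each point is a library, the black line is the mean and the dotted line is 1 TPM. PCGF1 to YAF2 lie at 17.2 TPM or more in every library, RING1 to PCGF5 lie between 1.43 and 6.18 TPM, and PCGF3 lies below 1 TPM.

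The catalytic subunits differed in level, and RNF2 held most of their RNA. RNF2 was at 45.1, 17.2 and 19.5 TPM in replicates 1, 2 and 3, a mean of 27.3 ± 15.5. The same libraries held RING1 at 2.78, 6.18 and 2.94 TPM, a mean of 3.97 ± 1.92. The lowest RNF2 value was above the highest RING1 value, although RNF2 was highest in replicate 1 and RING1 in replicate 2. RNF2 was 16.2, 2.78 and 6.63 times RING1 in replicates 1, 2 and 3. As log2(TPM + 1), a scale on which ratios between low genes shrink, RNF2 exceeded RING1 by 2.44 ± 1.14.

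As a share of the summed TPM of RING1 and RNF2, RNF2 took 94.2, 73.5 and 86.9% in replicates 1, 2 and 3, a mean of 84.9 ± 10.5%. Such a share is formed within a library, so rescaling a whole library by one factor does not move it. The share was lowest in replicate 2, and the mean was 90.5% without that library. The summed level of both genes was 47.9 TPM in replicate 1, 23.4 in replicate 2 and 22.4 in replicate 3.

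The PCGF genes, whose proteins help to set the form of the complex, were led by PCGF1 and PCGF6, and BMI1, PCGF5 and PCGF3 were far lower. PCGF1, the PCGF protein of the variant complex PRC1.1, was at 60.8, 158 and 101 TPM in replicates 1, 2 and 3, a mean of 107 ± 48.6. PCGF6, the PCGF protein of PRC1.6, was at 58.9, 109.6 and 69.2 TPM, a mean of 79.2 ± 26.8. They were the first and second of the 10 members in each of the 3 libraries. Among all symbols, their means lay at percentiles 94.4 and 92.8.

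BMI1, a PCGF protein of canonical PRC1, was at 3.93, 2.79 and 2.64 TPM in replicates 1, 2 and 3, a mean of 3.12 ± 0.704. PCGF5 was at 2.41, 1.43 and 1.55 TPM, a mean of 1.80 ± 0.536. PCGF3, which like PCGF5 belongs to the variant complexes PRC1.3 and PRC1.5, was at 0.672, 0.277 and 0.570 TPM, a mean of 0.507 ± 0.205. These 3 genes were highest in replicate 1, whereas PCGF1 and PCGF6 were highest in replicate 2. PCGF2, the paralog of BMI1 and the remaining PCGF gene, was listed at 0 in every library. A value of 0 in this table can be a failed estimate, since the ribosomal protein gene RPL27 and the proteasome gene PSMB6, which dividing cells use, were listed at 0 too. The level of PCGF2 is therefore not known from these values.

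PCGF1 and PCGF6 together took 94.5, 98.3 and 97.3% of the summed TPM of the PCGF genes in replicates 1, 2 and 3, a mean of 96.7 ± 2.005%. The sum rests on the 5 genes with values above 0, so each share is an upper limit if the 0 of PCGF2 is a failed estimate. PCGF1 alone took 54.6 ± 5.72% and PCGF6 took 42.1 ± 3.82%. BMI1 took 1.88 ± 1.09%, PCGF5 took 1.11 ± 0.715% and PCGF3 took 0.319 ± 0.214%. Replicate 1 held the highest shares of BMI1, PCGF5 and PCGF3, at 3.10, 1.90 and 0.531%. Without that library the mean shares were 1.27% for BMI1, 0.706% for PCGF5 and 0.214% for PCGF3. The summed level of the PCGF genes was 127, 272 and 175 TPM in replicates 1, 2 and 3, most of it from PCGF1 and PCGF6.

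Set against BMI1 on the log2(TPM + 1) scale, PCGF1 was higher by 4.61 ± 0.89 and PCGF6 by 4.25 ± 0.63. PCGF5 differed from BMI1 by -0.56 ± 0.07 and PCGF3 by -1.45 ± 0.20. The sign of each was shared by 3 of 3 libraries. PCGF3 and PCGF5 lie where the added pseudocount of 1 TPM weighs most, and the difference for PCGF3 was -2.45 with a pseudocount of 0.1 TPM and -0.56 with one of 5 TPM. For PCGF5 these values were -0.78 and -0.26. In TPM without a pseudocount, PCGF1 was 15.5 to 56.4 times BMI1 and PCGF6 was 14.99 to 39.3 times BMI1.

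**Figure D2:**
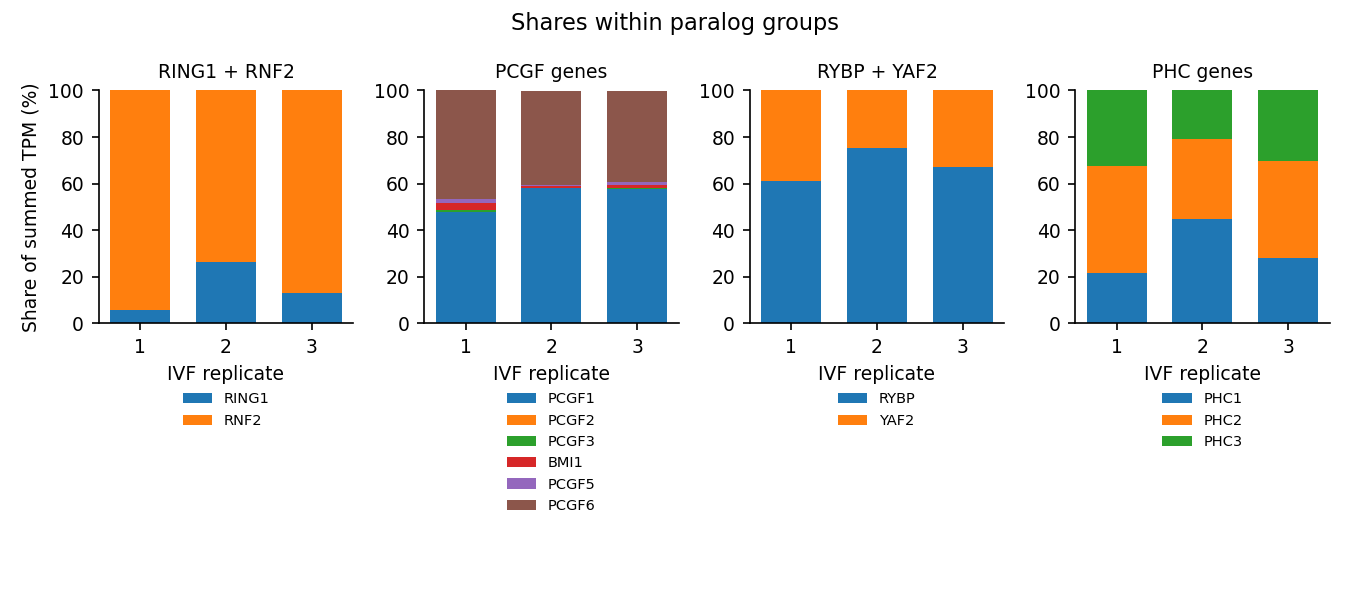
Share (%) of the summed TPM that each gene took within its paralog group in IVF replicates 1, 2 and 3. RNF2 took 73.5 to 94.2% of RING1 and RNF2, PCGF1 and PCGF6 together took 94.5 to 98.3% of the PCGF genes (PCGF2 is listed at 0), RYBP took 61.2 to 75.5% of RYBP and YAF2, and PHC2 took 34.4 to 45.9% of the PHC genes.

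RYBP and YAF2, paralogs that take the place of the CBX subunit in variant PRC1 and bind ubiquitinated H2A, were both well expressed. RYBP was at 29.4, 52.9 and 35.9 TPM in replicates 1, 2 and 3, a mean of 39.4 ± 12.2. YAF2 was at 18.6, 17.2 and 17.5 TPM, a mean of 17.8 ± 0.746. RYBP was above YAF2 in every library, and the ranges did not overlap. YAF2 was the most even of the 10 members, with an SD of 4.20% of its mean, and RNF2 was the least even at 56.9%.

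RYBP took 61.2, 75.5 and 67.2% of their summed TPM, a mean of 68.0 ± 7.15%. The log2(TPM + 1) difference of YAF2 from RYBP was -1.07 ± 0.47, with the same sign in 3 of 3 libraries. For this pair, for RNF2 and RING1, and for the 4 differences from BMI1, an exact two-sided sign-flip permutation test gave p = 0.25 each, also after adjustment over the 6 pairs. That is the smallest p that 3 libraries allow, so no pair could pass a threshold of 0.05.

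KDM2B, which binds unmethylated CpG DNA through its CXXC domain and brings the PCGF1 complex to CpG islands, was low beside its partner. It was at 1.80, 3.61 and 1.74 TPM in replicates 1, 2 and 3, a mean of 2.38 ± 1.06, at percentile 55.2 among all symbols. Like PCGF1 it was highest in replicate 2.

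Most neighbours in the lower part of the order could not be separated by their spread. Neighbours were told apart where the mean log2(TPM + 1) difference within libraries was larger than its SD and had one sign in all libraries. This rule is a description and no test, and the neighbours were set by ranking the same means. The sign-flip permutation test over libraries gave p = 0.25 for each step told apart, the smallest that 3 libraries allow. It gave 0.5 to 0.75 for the other steps. By that rule PCGF1 lay above PCGF6 by 0.37 ± 0.28, although in replicate 1 PCGF1 was only 1.03 times PCGF6. PCGF6 lay above RYBP by 0.98 ± 0.05, the steadiest step in the order. RYBP and RNF2, and RNF2 and YAF2, were not told apart, with differences of 0.61 ± 1.11 and 0.46 ± 0.67.

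YAF2 lay above RING1 by 1.98 ± 0.56, the widest gap between neighbours. Below it, no neighbouring pair among RING1, BMI1, KDM2B and PCGF5 was told apart, with differences of 0.22 ± 0.66, 0.31 ± 0.55 and 0.25 ± 0.62. This does not hold for all pairs among them, since PCGF5 differed from BMI1 by -0.56 ± 0.07, which meets the same rule. PCGF5 lay above PCGF3 by 0.89 ± 0.17. Without replicate 2, BMI1 came before RING1 and PCGF5 before KDM2B. Without replicate 1 or without replicate 3 the order was as given.

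**Figure D3:**
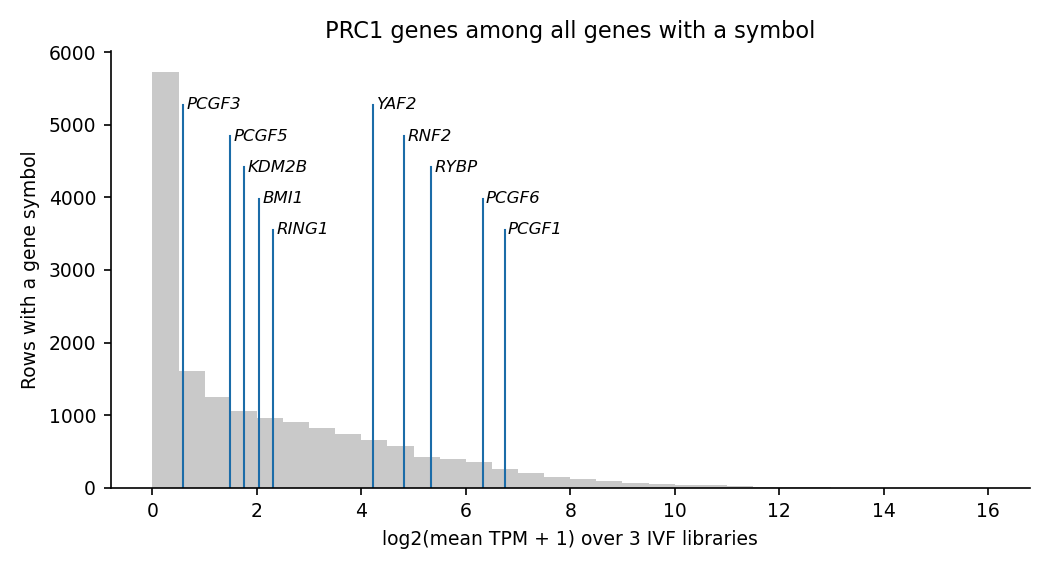
Number of rows with a gene symbol by log2(mean TPM + 1) over the 3 IVF libraries (grey bars), with the position of each PRC1 gene (blue lines, whose height has no meaning). PCGF1 lies at percentile 94.4 of the symbols and PCGF3 at percentile 36.6.

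Members also differed in which library held their highest value. RING1, PCGF1, PCGF6, RYBP and KDM2B were highest in replicate 2, RNF2, BMI1, PCGF3, PCGF5 and YAF2 were highest in replicate 1, and 0 of 10 were highest in replicate 3. Of 11692 genes whose mean reached 1 TPM, 50.7% were highest in replicate 2, 32.9% in replicate 1 and 16.4% in replicate 3. Of the 9 members with such a mean, 5, 4 and 0 were highest in replicates 2, 1 and 3, which is near those shares. The 9 members had a median SD of 33.9% of the mean, against 31.7% for 9219 symbols past the same filter.

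Each library was then set against the mean of the other libraries on the log2(TPM + 1) scale, and a difference of at least 2-fold was counted. In replicate 1, RNF2 was higher by 1.26 and PCGF1 differed by -1.04. These were 1 of 9 members in each direction, where 5.65% of all tested genes were at least 2-fold higher and 9.05% at least 2-fold lower. In replicate 2 no member was past 2-fold, where 13.8% of genes were higher and 3.55% lower. PCGF1 and RING1 came closest, higher by 0.996 and 0.896. In replicate 3 no member was past 2-fold either, where 1.4% of genes were higher and 5.01% lower. These are differences of single libraries, with no replicate check and no p-value.

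The median gene was not at 0 in these comparisons. It stood at -0.09 in replicate 1, 0.23 in replicate 2 and -0.16 in replicate 3. Relative to it, RNF2 was at 1.35 in replicate 1 and -0.99 in replicate 2, and PCGF1 was at -0.95 in replicate 1 and 0.76 in replicate 2. With libraries rescaled by the median of ratios, PCGF1 in replicate 1 was no longer past 2-fold, and RNF2 in replicate 2 was. By that rescaling 7.87% of all tested genes were at least 2-fold lower in replicate 1 and 6.92% in replicate 2. RNF2 in replicate 1 stayed past 2-fold with a pseudocount of 0.1 or 5 TPM and by median of ratios. The other settings changed only the filter on low values, which RNF2 passed, so they could not alter its call.

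**Figure D4:**
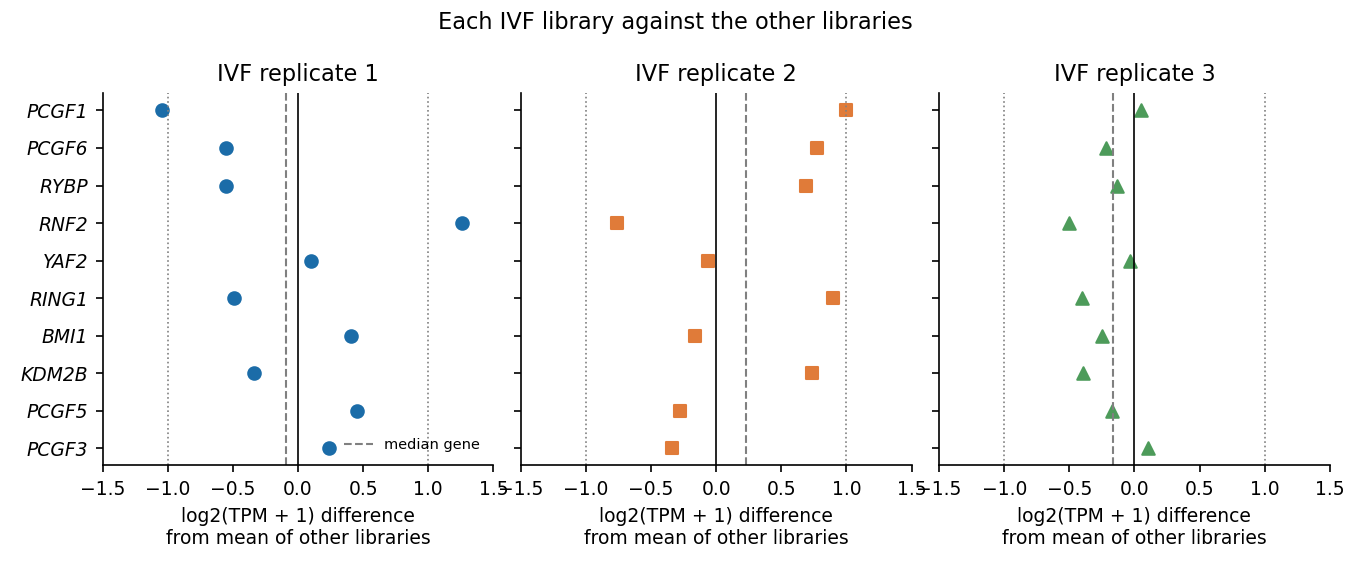
Difference of each PRC1 gene in 1 IVF library from the mean of the other libraries, on the log2(TPM + 1) scale. Dotted lines mark a 2-fold difference and the dashed line marks the median of all genes whose mean reached 1 TPM. RNF2 lies at 1.26 and PCGF1 at -1.04 in replicate 1, and all other points lie within 2-fold.

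Of 11 listed partners of canonical PRC1, 6 were at 1 TPM or more in every library, and the median was 3.91 ± 0.800 TPM. CBX6, a chromodomain protein, was at 3.86, 8.92 and 6.72 TPM in replicates 1, 2 and 3, a mean of 6.50 ± 2.54. Its paralog CBX8 was at 7.89, 5.15 and 3.14 TPM, a mean of 5.39 ± 2.38, and their ranges overlapped. CBX2 and CBX7 were below 1 TPM in every library, at 0.618 ± 0.178 and 0.750 ± 0.176 TPM. SCMH1, SCML1 and SCML4 were below it in every library too, with means of 0.752, 0.0510 and 0.0203 TPM, and the median of the list counts them.

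The PHC genes, whose proteins polymerise through a SAM domain, were closer to each other. PHC2 was at 8.09 ± 1.25 TPM, PHC1 at 6.46 ± 3.21 and PHC3 at 5.48 ± 1.03. PHC1 was highest in replicate 2, at 10.2 TPM, and took 44.7% of the PHC sum there, against 21.8% in replicate 1 and 28.2% in replicate 3. SCML2, a canonical partner with a SAM domain, was even among libraries at 13.0 ± 0.791 TPM. BMI1, at 3.12 TPM, was below the mean of every PHC gene and of CBX6 and CBX8.

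The lists of variant partners had higher medians than the canonical list, but each also held genes with means below the canonical median of 3.91 TPM. These were BCORL1 for PRC1.1, and L3MBTL2 (2.68 TPM) and DCAF7 (2.53 TPM) for PRC1.6. For PRC1.3 and PRC1.5 they were FBRS (1.54 TPM) and CSNK2B, listed at 0. All other listed variant partners had means above it. Of those, BCOR (4.14 TPM), TFDP1 (4.73 TPM) and MGA (6.36 TPM) had lower means than PHC1, PHC2 and CBX6 of the canonical list. A difference between the lists was not tested, since genes are not replicates. For PRC1.1, whose PCGF protein is PCGF1, 3 of 4 listed partners were at 1 TPM or more in every library, with a median of 88.1 ± 14.5 TPM. SKP1, an adaptor that also serves SCF ubiquitin ligases, was at 1447 ± 245 TPM, and the deubiquitinase USP7 was at 172 ± 29.8. BCOR, the corepressor that binds PCGF1, was at 4.14 ± 1.02 TPM, and its paralog BCORL1 was at 0.362 ± 0.186. SKP1 and USP7 have many roles outside PRC1, and the median of this short list is the midpoint between USP7 and BCOR.

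For PRC1.6, whose PCGF protein is PCGF6, 10 of 11 listed partners were at 1 TPM or more in every library, with a median of 15.8 ± 1.57 TPM. HDAC2, CBX3 and MAX were highest of those at 269.9 ± 40.4, 143 ± 22.1 and 57.0 ± 5.19 TPM, and HDAC1 followed at 32.6 ± 14.9. E2F6, a repressive E2F factor, was at 20.1 ± 4.61 TPM, near WDR5 at 16.6 ± 6.30 and CBX1 at 13.4 ± 2.12. MGA, the DNA-binding scaffold, was at 6.36 ± 2.61 TPM, L3MBTL2 at 2.68 ± 0.593 and DCAF7 at 2.53 ± 1.24. TFDP1 was the partner below 1 TPM in a library, at 10.3, 0.996 and 2.91 TPM in replicates 1, 2 and 3.

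For PRC1.3 and PRC1.5, 5 of 6 listed partners were at 1 TPM or more in every library, with a median of 10.1 ± 1.88 TPM, although PCGF3 and PCGF5 themselves were low. The catalytic casein kinase 2 subunits CSNK2A2 and CSNK2A1 were at 28.4 ± 17.3 and 15.8 ± 3.48 TPM. FBRSL1 was at 13.8 ± 3.30 and AUTS2 at 6.99 ± 2.32. CSNK2B, the regulatory subunit, was listed at 0 in every library, and 99.7% of its span in the reference gene table lies inside LY6G5B. In the same table LOC114117884 overlaps 50.6% of CSNK2A2, LOC132659640 overlaps 29.5% of CBX7, and several genes together overlap 17.1% of MGA. Other listed partners were overlapped over 6.81% of their span or less. Among the members, LOC121817663 overlaps 20.4% of PCGF5, and LOC132659532 overlaps 0.222% of YAF2. The other 8 members and PCGF2 overlap no listed gene.

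**Figure D5:**
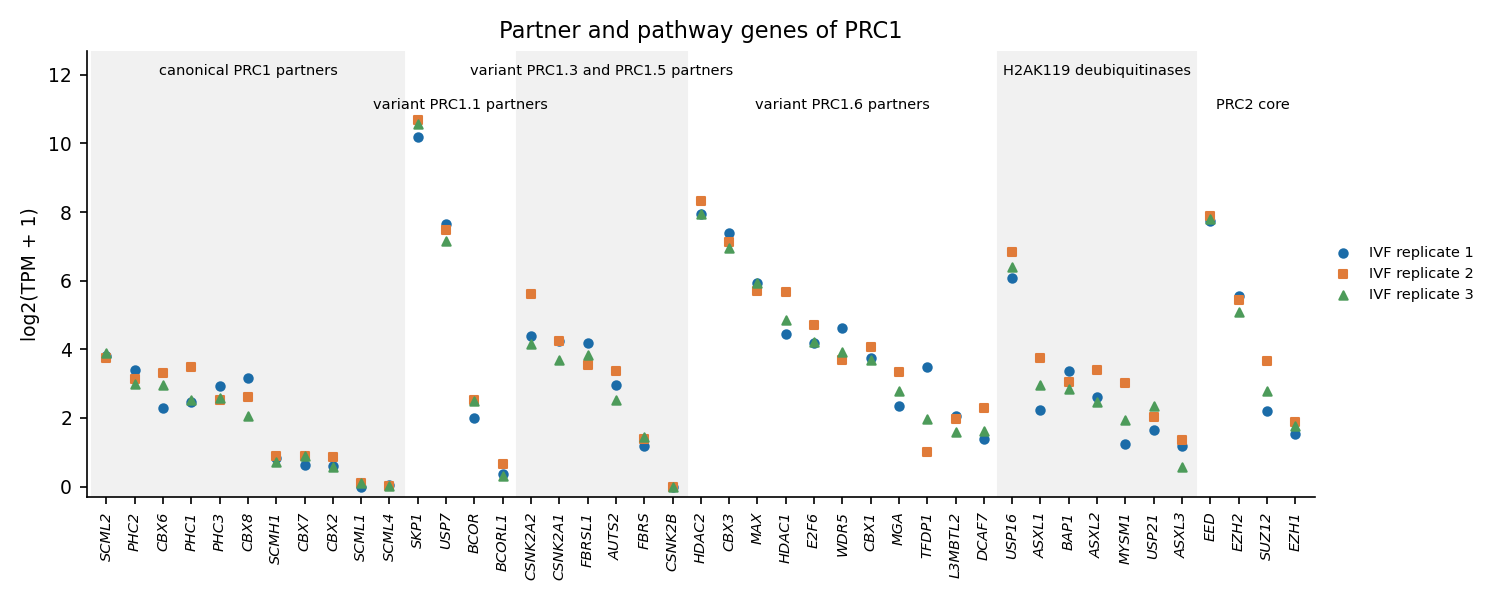
Level, as log2(TPM + 1), of PRC1 partner genes, of H2AK119 deubiquitinases with ASXL cofactors, and of core PRC2 genes in each IVF library. The partners are those of canonical and variant PRC1, and genes are ordered by mean within each list. Each point is a library. SKP1 is highest at 1447 TPM on average, and CSNK2B is listed at 0.

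RNA of enzymes that remove ubiquitin from H2A, and of the ASXL cofactors of BAP1, was measured beside that of the ligase. Of 7 listed genes, 6 were at 1 TPM or more in every library, with a median of 5.18 ± 1.87 TPM. USP16 was highest at 67.2, 113 and 83.6 TPM in replicates 1, 2 and 3, a mean of 87.9 ± 23.2. BAP1, the catalytic subunit of the PR-DUB complex, was at 7.59 ± 1.602 TPM, and its cofactors ASXL1 and ASXL2 were at 7.61 ± 4.43 and 6.44 ± 2.75. USP16 had a higher mean than RNF2 and was above it in every library.

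The core genes of PRC2, the complex that makes H3K27me3, had a median of 23.8 ± 4.03 TPM. EED, which binds H3K27me3, was at 223 ± 11.1 TPM, and the methyltransferase EZH2 was at 40.5 ± 6.95. SUZ12 was lower, at 3.64, 11.6 and 5.95 TPM in replicates 1, 2 and 3, a mean of 7.05 ± 4.07. EZH1 was lowest at 2.33 ± 0.399 TPM. The median of this short list is the midpoint between EZH2 and SUZ12. All 4 core PRC2 genes were at 1 TPM or more in every library. A difference in level between both complexes was not tested, since genes are not replicates.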

How the data were processed

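The authors deposited TPM values for 31304 rows and 7 columns of per-sample values, and each IVF column has the same total. Per the labels' protocols, cDNA from polyA RNA went through 20 cycles of PCR before Smart-seq2 sequencing (paired reads of 150 nucleotides). Reads were processed with fastp 0.23.4 and HISAT2 2.2.1, per the submitters' processing notes, which name mouse and pig builds. For the sheep build, annotation, counting tool and use of strand: not given in the sources used here. Because TPM has a fixed total, more RNA of abundant genes means lower values elsewhere.

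Columns were assigned by name. Of 7 columns, 3 match IVF samples and 4 match no label and were not used. Levels, shares within paralog groups, log2(TPM + 1) differences within libraries and differences of each library from the others were computed with scipy 1.17.1, pandas 2.3.3 and numpy 2.4.6 under Python 3.11.15, and drawn with matplotlib 3.10.9. The library step was tested on simulated data. Overlaps and gene identities come from the ARS-UI_Ramb_v3.0 gene table, which matched 28862 rows and all 10 members. Its build may differ, so no coordinates are given. Members and lists were chosen with earlier results of these data known. All members and PCGF2 are named, as are the most abundant genes of each list (up to 4) and genes listed at 0, and further list members were chosen after their values were seen. Planned differences from PCGF2, listed at 0, were replaced by differences from BMI1 after seeing the data. 1 gene of a partner list is not reported here. Alternatives were detection thresholds, pseudocounts, filters on low values, rescaling and leaving out each library.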

Additional observations from a re-analysis of the deposited data

How the results depend on the processing

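Depth is unknown, so low values such as those of PCGF3 cannot be told from sampling loss, and 3 libraries of a single group allow no test past 0.05. No paired analysis was possible because IVF is the one group with values. Members at the detection threshold in every library numbered 9 for a threshold of 1 TPM, 5 for one of 5 TPM, which is stricter by construction, and 9 with any library left out. In replicate 1 the members at least 2-fold lower, 1 of 9, became 0 with a pseudocount of 5 TPM and 0 by median of ratios. The shares of all tested genes were 2.17% and 7.87% there. In replicate 2 the members at least 2-fold higher, 0, became 2 of 9 (RING1 and PCGF1) with a pseudocount of 0.1 TPM, where 19.7% of all tested genes were higher. Those lower, 0, became 1 of 9 (RNF2) by median of ratios, where 6.92% of all tested genes were lower. These member counts are too small to be set apart from the shares. The cause was not tested. The level of YAF2 was 21.5 TPM without mitochondrially encoded and ribosomal protein genes, above its spread, because removing genes raises the rest. Of 91 values under settings other than leaving out a library, 85 stayed within 1 SD of the libraries (levels and shares), within 1.5 times (counts) or on the same side of 0 (pair differences). None of the 6 pair differences changed sign under a pseudocount, rescaling or left-out library. That was fixed in advance, since each had one sign in every library. The 18 pair differences among those 91 values were thus sure to stay, and say nothing about robustness. With a library left out, the share of RNF2 ranged from 80.2 to 90.5%, that of PCGF1 and PCGF6 together from 95.9 to 97.8%, and that of RYBP from 64.2 to 71.4%. The small shares moved more, with PCGF5 at 0.706 to 1.39%, lowest without replicate 1.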
